A study of Homo sapiens with 3 samples.

Results

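The cells described here are the ribociclib-sensitive CAMA-1 cells that had grown in coculture with ribociclib-resistant CAMA-1 cells, divided by cell cycle phase. They are the 2059 cells, of 19237 annotated cells in all, that the deposited annotation places in the sensitive population of the coculture library. The deposited phase put 1138 of them in G1 (55.3%, exact binomial interval 53.1% to 57.4%), 458 in S (22.2%, 20.5% to 24.1%) and 463 in G2M (22.5%, 20.7% to 24.4%). The 921 cells in S or G2M (44.7%, 42.6% to 46.9%) are called cycling below, and every gene was compared between them and the G1 cells.

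CAMA-1 is a luminal breast cancer cell line that expresses the estrogen receptor. Sensitive cells were marked with mVenus, a yellow fluorescent protein, and the resistant lineage, derived from the same line by months of growth in ribociclib, with mCherry, a red one. A label marks the descent of a cell, not its drug response, and each lineage was a labelled population with no single clone named. Spheroids were started from 2000 cells, which were 50% sensitive and 50% resistant in coculture and 100% of 1 lineage in monoculture. All were kept for 11 days in 1 µM ribociclib with DMSO, so the coculture and both monocultures share the drug and no untreated group exists. There was 1 single-cell library per condition. Cells of 1 library are not replicates, so no test was run, and the intervals given cover counting error only.

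Ribociclib blocks the kinases CDK4 and CDK6, which act with D-type cyclins to phosphorylate the retinoblastoma protein RB. Unphosphorylated RB holds back the E2F transcription factors, and released E2F switches on genes for DNA replication as a cell passes from G1 into S. A later wave of transcription, to which B-MYB and FOXM1 contribute, brings up the genes for mitosis in G2.

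Unique molecular identifiers (UMIs), which count each captured RNA molecule once, were summed over the cells of a phase and expressed as counts per 1000000 (CPM). The sums were 36867890 UMIs in G1, 17080290 in S and 16948642 in G2M. A ratio is the log2 ratio of CPM + 1, taken for genes with at least 50 UMIs over both groups, and a gene is called higher or lower where it differed by at least 1.5-fold on that scale, which is a rule of size and not a test. A summed CPM does not tell fewer expressing cells from less RNA per cell. The median cell had 31964 UMIs in G1, 37724 in S and 35635 in G2M, and its mitochondrial share was 19.2% in G1, 15.1% in S and 15.8% in G2M. Cycling cells thus had more UMIs, and CPM sets that difference aside. On UMIs per cell, with no scaling to the total, ratios of cycling over G1 would be larger by about 0.19, and by less for genes of low CPM, where the added 1 weighs more.

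The population had been assigned by the label UMIs, so that each cell had at least 1 mVenus UMI and none had an mCherry UMI was fixed by that choice and checks nothing. The methods name 2 or more label UMIs for a kept cell, which 51.9% of the G1 and 58.2% of the cycling cells in the annotation met for mVenus. The label stood at 64.9 CPM in G1 and 66.5 CPM in cycling cells. Other genes can be set beside the label. MGP, a matrix protein gene that stood at 5983 CPM in the resistant cells of the same library, was at 1070 CPM in G1 and 1010 CPM in cycling sensitive cells, and at 404 CPM in the sensitive monoculture. FABP7, a fatty acid binding protein gene, was at 14.4 CPM in those resistant cells, 313 CPM in G1 and 263 CPM in cycling sensitive cells, and 1398 CPM in the sensitive monoculture. As averages over the cells, both genes thus stood between the resistant cells and the sensitive monoculture. In the G1 cells of the authors' cluster 3 alone, MGP was lower, at 786 CPM, and FABP7 was at 281 CPM. Some of the cells lay in clusters that otherwise hold mainly resistant cells. There were 43 in cluster 0, 35 in cluster 11, 34 in cluster 2 and 20 in cluster 6. A further 14 lay in cluster 1, 9 in cluster 5 and 1 each in clusters 10 and 13. The phases were uneven there. In cluster 0, 39 of 43 were G1 cells, in cluster 6 all 20 were, and in cluster 2, 32 of 34 were G2M cells. How far these cells set the averages of MGP and FABP7 was not tested. The luminal epithelial genes EPCAM, KRT8, KRT18, KRT19, GATA3 and FOXA1 were all detected, from 87.3 to 3364 CPM over both groups, and ESR1, the estrogen receptor gene, was at 19.6 CPM in G1 and 20.8 CPM in cycling cells. The methods give a threshold of 0.25 for the removal of doublets by scrublet, and no other setting of that run. Run anew on the deposited counts, it gave a score above 0.25 in 26 G1 cells (2.28%), 12 S cells (2.62%) and 21 G2M cells (4.54%). A barcode sequence of these cells also occurred 8 times in the sensitive monoculture library and 10 times in the resistant monoculture library.

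The phase had been called by the authors from 2 published lists of genes, an S list and a G2M list. In 2059 of 2059 cells the deposited phase was the list with the larger positive score, or G1 where both scores were 0 or less. The mean level of the list followed the deposited score over these cells with a Pearson r of 0.992 for the S list and 0.995 for the G2M list, a description over cells that share 1 library. The members of both lists therefore had to differ between the groups, and they are given as a description of what the call used. The score is a range without a gap. The lowest larger score of a cycling cell was 3.69e-06 and the highest of a G1 cell was -3.60e-05. Within 0.05 of the threshold lay 153 cycling and 441 G1 cells. Both scores were above 0 in 631 cells.

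**Figure D1:**
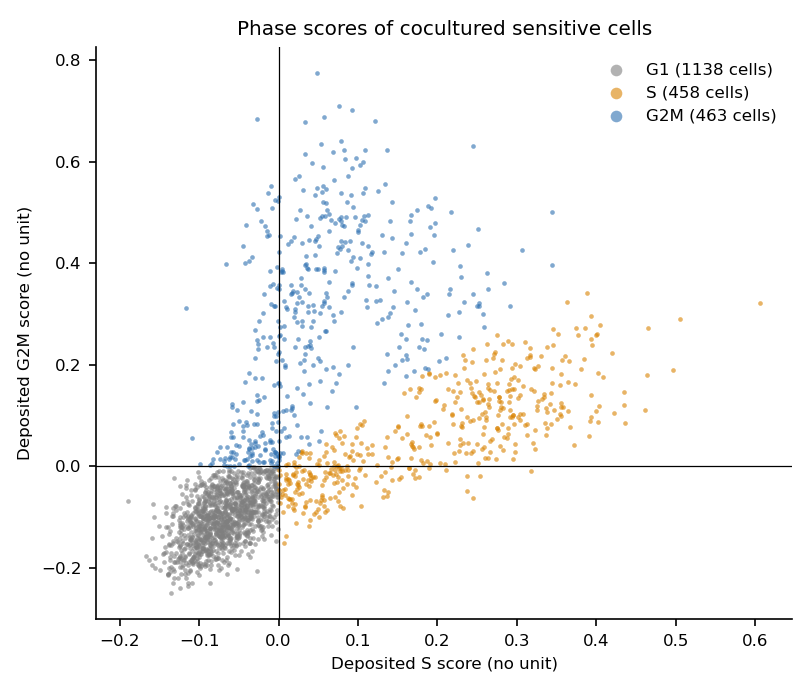
Deposited S score (x axis) and G2M score (y axis, both without unit) of the 2059 cocultured sensitive cells, 1 point per cell, coloured by deposited phase, with black lines at 0. The 1138 G1 cells form a single cloud below 0 on both axes that runs without a gap into the 458 S cells and the 463 G2M cells.

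Of the S list, 41 of 43 genes were matched and compared, and all 41 were higher in cycling cells, with a median ratio of 1.61. The leading member was RRM2, the small subunit of the enzyme that makes deoxyribonucleotides, at 6.13 CPM in G1, 126 CPM in S and 88.3 CPM in G2M. CLSPN, a replication checkpoint adaptor, was at 5.32, 73.1 and 40.2 CPM in that order of phases. CCNE2, a cyclin of the G1 to S transition, was at 1.84, 35.2 and 5.72 CPM, so its level in G2M cells was much closer to that in G1 cells. Of the G2M list, 51 of 54 genes were higher in cycling cells, with a median of 2.01. MKI67, the gene of the proliferation antigen Ki-67, was at 11.3 CPM in G1, 84.8 CPM in S and 162 CPM in G2M, and HMGB2, a chromatin protein gene, at 10.3, 79.3 and 185 CPM. TOP2A, which untangles DNA before mitosis, was at 57.2, 239 and 527 CPM. These are the genes that sorted the cells.

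Across all genes, 636 of 11505 (5.53%) were higher in cycling cells and 194 (1.69%) were lower. The median ratio was 0.02, and the quartiles were -0.14 and 0.19. Higher genes made up 76.6% of those called, a split that depends on the scaling. On UMIs per cell it was 92.5%. With S cells alone, 637 genes (5.69%) were higher and 232 (2.07%) lower than in G1, and with G2M cells alone 674 (6.02%) were higher and 323 (2.89%) lower. Both phases shared 424 higher genes, which is 66.6% of those of S and 62.9% of those of G2M, but they share the G1 cells as their reference. Outside the phase-call lists, which set the phases, they shared 347, which is 62.9% of those of S and 59.0% of those of G2M. Of the 636 higher genes, 92 belonged to the phase-call lists, 163 to another of the lists described here and 381 to none. None of the 194 lower genes was a member of a phase-call list.

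**Figure D2:**
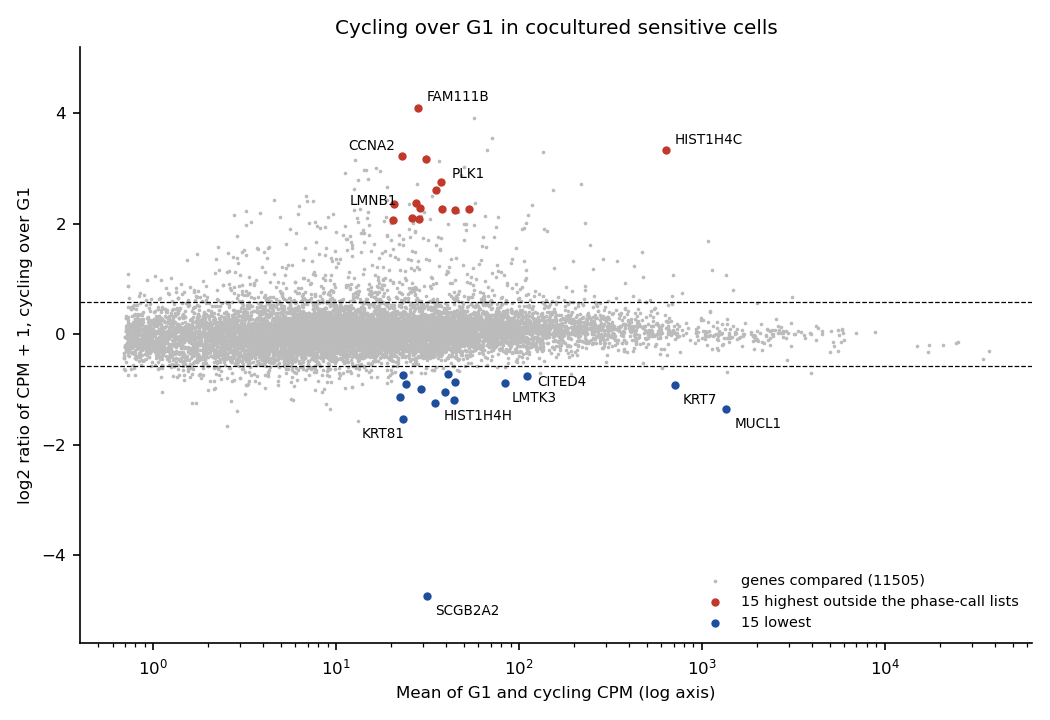
Ratio of cycling over G1 (y axis, log2 of CPM + 1) against the mean CPM of both groups (x axis, log scale) for the 11505 genes compared, 1 point per gene, with dashed lines at a 1.5-fold difference. The 15 highest genes outside the phase-call lists, in red, run from 2.07 to 4.10, and the 15 lowest, in blue, from -4.75 to -0.72, with SCGB2A2 far below the others.

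The 15 highest genes outside the phase-call lists, ranked where both groups averaged 20 CPM or more, were led by FAM111B, which encodes a protease. FAM111B was at 2.20 CPM in G1 (1.75 to 2.73), 87.4 CPM in S (83.0 to 92.0) and between 17.9 and 22.3 CPM in G2M, a ratio of 4.10 for cycling cells. HIST1H4C, a histone H4 gene, was next, with a ratio of 3.33. The other 13 were CCNA2, SPC25, PLK1, PBK, KIFC1, CEP55, LMNB1, PRC1, KIF4A, PHF19, HIST2H2AC, BUB1B and DIAPH3, with ratios from 3.22 down to 2.07. Most of them act in mitosis: SPC25 is a kinetochore subunit, KIFC1 and KIF4A are spindle motors, CEP55 and PRC1 serve cytokinesis and the midzone, and BUB1B is a spindle checkpoint kinase. PBK is a mitotic kinase, LMNB1 builds the nuclear lamina, PHF19 is a Polycomb cofactor and DIAPH3 assembles actin. Only HIST1H4C, HIST2H2AC and FAM111B among these 15 stood higher in S than in G2M cells.

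The E2F and RB family showed its largest differences among its inducible members. Of 19 genes compared, 7 were higher, and 3 within cluster 3, none was lower and the median ratio was 0.46. E2F1, an activator of replication genes, was at 16.2 CPM in G1, 56.7 CPM in S and 21.1 CPM in G2M. E2F2, another activator, was at 1.899, 9.60 and 3.36 CPM. E2F7, a repressor that is itself induced in S, was at 0.380, 8.08 and 2.24 CPM, the G1 value resting on 14 UMIs. E2F1, E2F2 and E2F7 were thus highest in S cells and lower in G2M cells. MYBL2, which encodes B-MYB, was at 30.6, 116 and 124 CPM, and FOXM1, an activator of mitotic genes, at 5.43, 19.3 and 26.3 CPM. RBL1, which encodes the pocket protein p107, was higher, at 3.93, 15.8 and 11.5 CPM. RB1 was at 21.7, 24.0 and 25.6 CPM and RBL2, which encodes p130 of quiescent cells, at 20.7, 16.7 and 16.3 CPM, neither past the size rule. The other higher gene was TFDP1, the E2F partner, which was named after its values were seen.

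Among cyclins, CDKs and their regulators outside the phase-call lists, 15 of 27 genes were higher, and 8 with a pseudocount of 10 CPM, none was lower and the median was 0.65. CCNE1, the other cyclin E gene, was at 8.84 CPM in G1, 24.3 CPM in S and 9.15 CPM in G2M, so its G2M level lay within the counting interval of G1 (7.91 to 9.86 CPM). CCNA2, cyclin A, was at 3.64 CPM in G1, 28.0 CPM in S and 56.6 CPM in G2M. CCNB1, the mitotic cyclin B, was at 60.3, 78.2 and 371 CPM, with a ratio of 0.37 in S and 2.60 in G2M. PLK1, a kinase of mitotic entry, was at 8.92, 25.1 and 108 CPM. CCNE1 was thus highest in S, and CCNA2, CCNB1 and PLK1 in G2M.

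CDK4, a target of the drug, was at 107 CPM in G1, 170 CPM in S and 150 CPM in G2M, a ratio of 0.58 that lies just under the size rule of 0.585, passes it in S cells alone at 0.66 and passes it on UMIs per cell. CDK6 had 5 UMIs in G1 and 3 in cycling cells and was not compared. CCND1, cyclin D1, was at 1595 CPM in G1, 1564 CPM in S and 1441 CPM in G2M, a ratio of -0.09 that is above 0 on UMIs per cell. CCND3 was at 30.2, 49.8 and 38.5 CPM with a ratio of 0.53, and 0.70 in S alone. CDK1 and CDK2, the kinases of mitosis and S phase, were higher, CDK1 at 17.8, 77.1 and 116 CPM and CDK2 at 3.82, 13.3 and 11.2 CPM. CDK1 belongs to the G2M list that called the phase.

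Of 6 CDK inhibitor genes compared, 2 were higher and none was lower, with a median of 0.23. CDKN2C, which encodes the CDK4 and CDK6 inhibitor p18, was at 1.84 CPM in G1, 3.86 CPM in S and 5.84 CPM in G2M, and CDKN2D, which encodes p19, at 11.5, 20.1 and 19.3 CPM. Both are inhibitors whose transcripts were higher in the cells scored as cycling. Within the authors' cluster 3 alone both ratios turned to the other side of 0. CDKN1A, the p53 target p21, was at 14.4 CPM in G1, 13.8 CPM in S and 11.3 CPM in G2M, and CDKN1B, the quiescence inhibitor p27, at 19.2, 20.1 and 22.1 CPM. CDKN2B was at 5.32, 2.69 and 4.25 CPM, a ratio of -0.50, and -0.77 in S alone. None of these 3 passed the size rule for cycling over G1. Among cells with scores at least 0.1 from the threshold the ratio was -1.14 for CDKN1A and -1.12 for CDKN2B, and both were then lower.

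Genes for DNA replication outside the phase-call lists were higher as a group: 31 of 39 were higher, none was lower and the median was 1.07, beside 0.02 over all genes. Within cluster 3 the number higher was 16. MCM10, which helps to activate the replicative helicase, was at 3.23 CPM in G1, 45.7 CPM in S and 17.7 CPM in G2M. CDT1, which loads the helicase at origins, was at 10.0 CPM in G1 (9.04 to 11.1), 55.4 CPM in S (51.9 to 59.0) and 24.7 CPM in G2M (22.4 to 27.2). ASF1B, a histone chaperone of the fork, was at 8.06, 35.2 and 24.7 CPM. Their S levels were the highest for each. Of 38 members, 28 (73.7%) stood higher in S than in G2M, beside 46.5% of the 11118 genes compared in both phases. Lists with small differences leaned as far, such as the ribosomal protein genes with 59 of 76, so nothing is read from that share. By at least 1.5-fold, 5 of the 38 were higher in S and 0 in G2M, beside 162 and 209 of the 11118. Members that did not pass the size rule included 4 of the origin recognition subunits, ORC2, ORC3, ORC4 and ORC5, with ratios from -0.14 to 0.24. These 4 were chosen after their values were seen.

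For nucleotide supply, 9 of 23 genes were higher, and 3 within cluster 3, none was lower and the median was 0.47. TK1, thymidine kinase, was at 21.5 CPM in G1, 98.5 CPM in S and 64.9 CPM in G2M, and DUT, which clears dUTP, at 113, 303 and 267 CPM. The genes of homologous recombination and the Fanconi pathway, which repair broken and crosslinked DNA, were higher in 18 of 25 cases with none lower and a median of 0.78. The number higher was 5 with a pseudocount of 10 CPM. FANCI was at 10.2, 30.1 and 37.4 CPM, FANCA at 5.43, 20.7 and 14.1 CPM, and BARD1, the partner of BRCA1, at 10.2, 31.7 and 26.6 CPM. Of these 25 repair genes 17 (68.0%) stood higher in S than in G2M, a lean that lists with small differences also had, such as the ribosomal protein genes with 59 of 76, so nothing is read from it.

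Genes of the kinetochore, centromere and spindle gave the highest median outside the phase-call lists, 1.45, with 45 of 52 higher, 27 within cluster 3, and none lower. KIF20A, a motor of cytokinesis, was at 2.495 CPM in G1, 9.54 CPM in S and 43.7 CPM in G2M. ESPL1, the separase that opens sister chromatids, was at 1.68, 8.31 and 18.3 CPM. SPC25 was at 5.43, 45.8 and 67.4 CPM, so that its S level was nearer to G2M than to G1. Of the 52, 44 (84.6%) stood higher in G2M than in S cells, beside 53.5% of all genes. The 13 mitochondrially encoded genes had that share too, with 0 by at least 1.5-fold, so nothing is read from the share alone. In the kinetochore list 17 genes were higher in G2M by at least 1.5-fold and 0 in S by that margin. The condensin and chromatin list had 21 of 30 higher, 8 within cluster 3, none lower and a median of 0.89. Of these 30, 22 (73.3%) stood higher in G2M than in S, beside 53.5% of all genes, and nothing is read from that share. By at least 1.5-fold, 3 of this list were higher in G2M and 0 in S. In it, NCAPG, a condensin subunit, was at 4.45, 24.5 and 42.8 CPM, LMNB1 at 9.14, 40.0 and 57.4 CPM and DEK, a chromatin protein gene, at 90.2, 353 and 382 CPM.

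**Figure D3:**
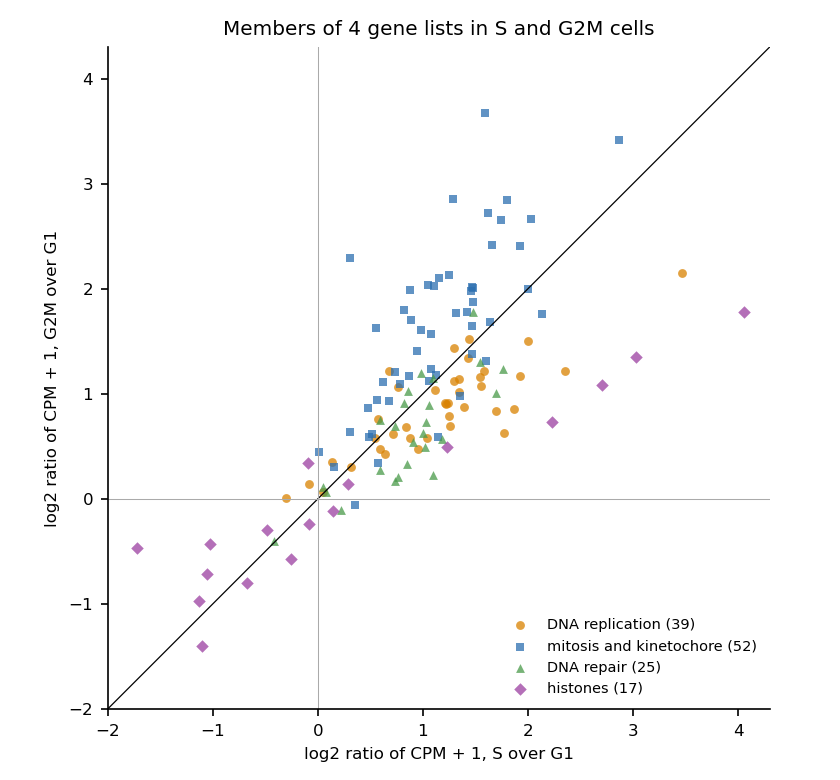
Ratio of S over G1 (x axis) and of G2M over G1 (y axis, both log2 of CPM + 1) for the members of 4 gene lists outside the phase-call lists, 1 point per gene, with a black line where both ratios are equal. Most of the 52 mitosis and kinetochore genes lie above the line and most of the 39 DNA replication genes below it, while the 17 histone genes spread from the lower left to the far right, where HIST1H4C lies at 4.05 and 1.78.

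Replication-dependent histone genes, which are made in S to package new DNA and whose mature transcripts mostly lack the poly(A) tail that this 3' chemistry captures, split into opposite groups. Of 39 listed, 21 were matched in the files and 17 were compared. Of these, 5 were higher and 6 were lower, with a median of -0.16 that becomes 0.03 on UMIs per cell. Within cluster 3, 2 were higher, and with a pseudocount of 10 CPM 3 were lower. HIST1H4C was at 115 CPM in G1 (111 to 118), 1922 CPM in S (1902 to 1943) and 397 CPM in G2M (388 to 407). HIST2H2AC was at 9.17, 65.2 and 20.6 CPM and HIST1H1B, a linker histone gene, at 0.760, 13.4 and 3.48 CPM. These peaked in S, as did HIST1H1E and HIST1H2AI, the other 2 that were higher. On the other side, HIST1H4H, which encodes the same histone H4 protein as HIST1H4C, was at 49.4 CPM in G1 (47.2 to 51.7), 22.4 CPM in S (20.2 to 24.8) and 18.1 CPM in G2M (16.1 to 20.3). HIST1H2BD was at 53.8, 24.0 and 27.0 CPM and HIST1H2BC at 29.2, 17.97 and 16.3 CPM. HIST1H2AC, HIST1H2BN and HIST2H2BE were the other 3 lower genes, with ratios of -0.70, -0.88 and -0.97. HIST1H2AC, HIST1H2BN, HIST2H2BE, HIST1H1E and HIST1H2AI were singled out after their values were seen. Histone genes have near-identical copies, and reads that fit several copies are not counted by the authors' software, so levels of single members are uncertain. On UMIs per cell, 5 were still higher and 4 lower.

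**Figure D4:**
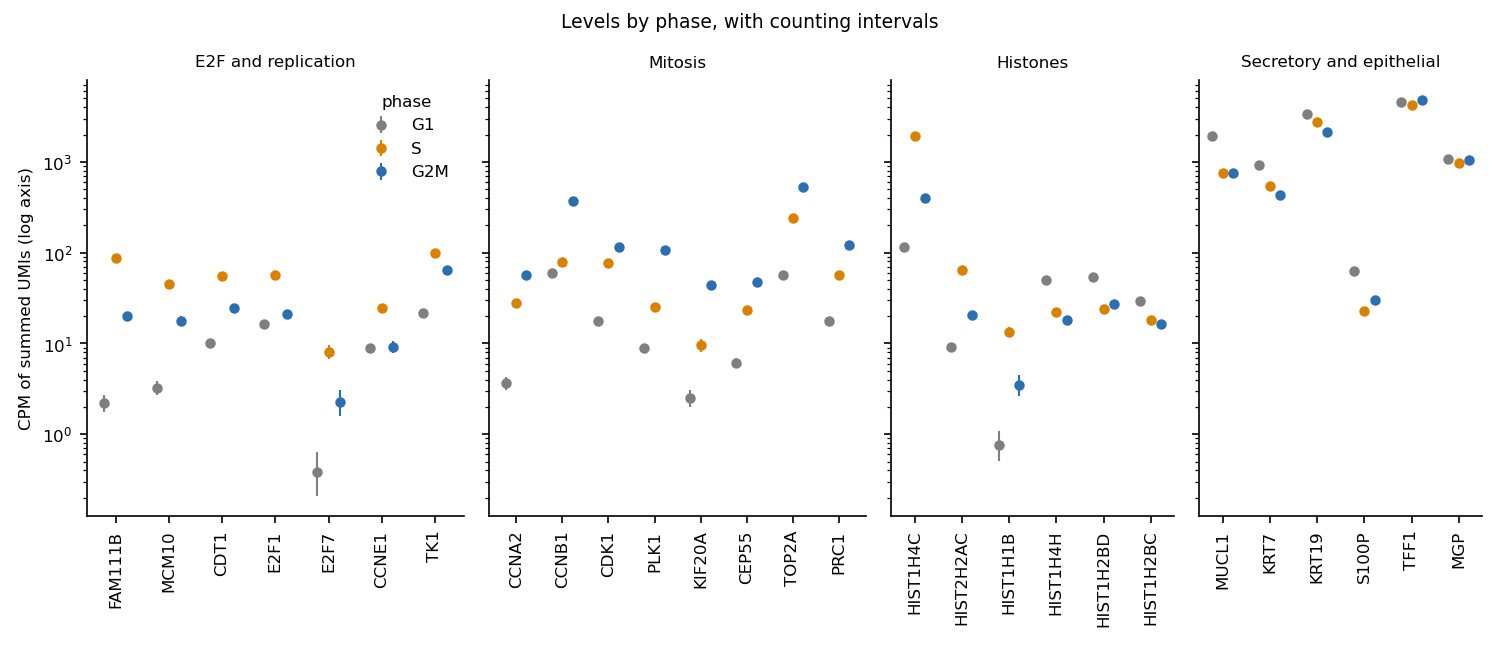
CPM of summed UMIs (y axis, log scale) of named genes in G1, S and G2M cells, in 4 groups, with exact Poisson intervals as bars that are mostly smaller than the points. FAM111B, MCM10, E2F1 and HIST1H4C are highest in S, CCNB1, PLK1 and KIF20A in G2M, and HIST1H4H, MUCL1 and KRT7 in G1, while TFF1 and MGP hardly differ.

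Promoter sequences were set beside these phases, since E2F sites and the CHR element are the textbook marks of the S and the G2M wave. The RefSeq promoters of assembly GRCh38.p14, which run from 250 bases before the start to 50 bases after it, were matched for 9448 of the 11505 genes compared. They were searched on both strands for the E2F site as TTTCCCGC or TTTGGCGC, for the CHR element TTTGAA and for the CCAAT box, and a promoter could hold several. For each phase the promoter of the gene with the highest ratio outside the phase-call lists that held the motif, among genes averaging 20 CPM or more, is shown, 250 bases before the start and 5′ to 3′ on the gene's strand, with the motif in capitals. In CDT1 (chr16:88803539-88803788, plus strand) it marks the E2F site, read on the other strand, and in PLK1 (chr16:23678639-23678888, plus strand) the CHR element. The first capital lies 35 bases before the start in CDT1 and 29 in PLK1.
CDT1: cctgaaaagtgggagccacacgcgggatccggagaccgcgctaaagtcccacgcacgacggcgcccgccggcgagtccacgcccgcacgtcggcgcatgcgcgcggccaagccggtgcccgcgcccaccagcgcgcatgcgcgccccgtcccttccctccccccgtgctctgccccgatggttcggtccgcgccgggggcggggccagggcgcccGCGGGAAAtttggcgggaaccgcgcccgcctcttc
PLK1: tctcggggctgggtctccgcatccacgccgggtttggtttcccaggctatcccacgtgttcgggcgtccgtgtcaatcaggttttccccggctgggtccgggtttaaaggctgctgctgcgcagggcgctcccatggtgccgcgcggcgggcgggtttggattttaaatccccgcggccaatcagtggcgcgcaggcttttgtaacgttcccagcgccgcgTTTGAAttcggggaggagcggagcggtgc

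An E2F site was found in 12.8% of the 517 promoters of genes higher in cycling cells (exact binomial interval 10.0% to 15.95%), beside 3.82% of all promoters of genes compared and 1.34% of the 149 promoters of lower genes. The higher genes included 92 members of the phase-call lists, which had sorted the cells, so these shares are partly set by that choice. The CHR letters were found in 24.0% of the promoters of higher genes (20.4% to 27.9%) beside 9.29% of all, and the CCAAT box in 49.7% beside 37.1%. Genes higher in S and not in G2M held an E2F site in 11.2% of 170 promoters (6.87% to 16.9%) and the CHR letters in 10.0% (5.93% to 15.5%). Genes higher in G2M and not in S held an E2F site in 5.69% of 211 promoters (2.97% to 9.72%) and the CHR letters in 20.9% (15.6% to 27.0%). The intervals of these sets overlap for E2F and nearly meet for the CHR letters, and neither difference was tested. Members of the phase-call lists were kept in these sets. Over all genes higher in each phase outside the phase-call lists the intervals overlapped for both motifs. An E2F site was found in 11.7% for S (8.89% to 15.02%) and 9.78% for G2M (7.30% to 12.8%), and the CHR letters in 18.5% for S (15.1% to 22.4%) and 21.4% for G2M (17.8% to 25.3%). A match is a description of letters and does not show that a factor was bound.

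The 15 lowest genes, ranked by the same limit of 20 CPM, included genes of secreted and epithelial proteins and 3 histone genes, while 168 of the 194 lower genes belonged to none of the lists. Of the 15, SCGB2A2, which encodes mammaglobin-A, was at 61.4 CPM in G1 and 1.41 and 1.24 CPM in S and G2M, a ratio of -4.75. Its UMIs sat in few cells: 1 G1 cell held 915 of its 2307 UMIs and another held 405. Without these 2 cells, left out after their values were seen, the ratio was -3.52, but 4 further G1 cells held 357, 185, 145 and 105 UMIs, so the value still rested on few cells. The ratio was -3.02 within cluster 3, where 1 cell held 405 of the 503 UMIs in G1, and -2.03 with phases called anew. A UMI of SCGB2A2 was found in 3.87% of G1 cells and 4.13% of the cycling cells, which had more UMIs. MUCL1, a small mucin gene of breast epithelium, was spread more widely and was at 1947 CPM in G1 (1932 to 1961), 756 CPM in S (743 to 769) and 761 CPM in G2M (747 to 774). A UMI of MUCL1 was found in 98.4% of G1 and 98.5% of cycling cells, but the amounts were uneven. A single G1 cell held 3020 of its 97567 UMIs and another 2453. Without these 2 cells its ratio went from -1.36 to -1.25. Of the 2059 cells, the 65 with the most MUCL1 UMIs held about as many as all the others together. The same number of cells was 2 for SCGB2A2 and 514 for KRT7, which is described next. How far these 65 cells set the MUCL1 ratio was not tested. KRT7, a keratin gene of simple epithelia, was at 930 CPM in G1 (921 to 940), 550 CPM in S (539 to 561) and 431 CPM in G2M (421 to 441). S and G2M cells were thus alike for MUCL1, while KRT7 was lower still in G2M than in S.

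Among the rest of the 15 lowest, KRT81, a hair keratin gene with close copies, was at 35.1 CPM in G1, 11.0 CPM in S and 11.8 CPM in G2M. A single G1 cell held 275 of its 1683 UMIs, and its ratio was -1.54, and -1.06 without the 2 cells with the most. S100P and S100A1, calcium-binding protein genes, were at 62.2, 22.8 and 30.3 CPM and at 57.9, 29.5 and 33.3 CPM. Each missed the size rule in 1 of 15 alternatives, S100P at -0.42 with phases called anew and S100A1 at -0.52 in clusters 3 and 7 alone. A UMI of S100P was found in 36.0% of G1 and 37.4% of cycling cells. BCAS1, a gene amplified in some breast cancers, was at 31.1, 16.2 and 10.9 CPM, and VTCN1, the immune ligand B7-H4, at 31.6, 18.2 and 14.8 CPM. LMTK3, a membrane kinase gene, was at 110, 72.5 and 45.0 CPM, and SRCAP, a chromatin remodeller that exchanges histone H2A.Z, at 51.1, 36.4 and 24.6 CPM, both lowest in G2M. CITED4, a transcription cofactor gene, was at 139, 85.4 and 79.4 CPM and LINC02303, a long noncoding RNA, at 39.1, 19.7 and 18.4 CPM. The histone genes HIST1H4H, HIST1H2BD and HIST1H2BC complete the 15. KDM5B, a histone H3 demethylase gene singled out after its values were seen, was lower in S alone, at 53.7 CPM in G1, 27.1 CPM in S and 50.2 CPM in G2M.

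Both the higher and the lower genes moved with cluster as well as with phase. The authors' cluster 3 held 868 of the G1 cells (76.3%) and 219 of the cycling cells (23.8%), while cluster 7 held 3 G1 cells and 614 cycling cells (66.7%). A further 151 G1 cells lay in clusters 4, 8 and 12, which otherwise hold mainly cells of the sensitive monoculture. In those 151 cells MUCL1 was at 5984 CPM, against 1474 CPM in the G1 cells of cluster 3, SCGB2A2 at 398 CPM against 17.3 CPM, and KRT7 at 1557 CPM against 845 CPM. Both SCGB2A2 values rested on few cells, with 915 of 1610 UMIs in 1 of the 151 cells and 405 of 503 in 1 G1 cell of cluster 3. The clusters were themselves drawn from these genes. Within cluster 3 the ratios of the 15 highest genes were smaller and ran from 0.91 to 2.29, with FAM111B going from 4.10 to 2.29, HIST1H4C from 3.33 to 1.54 and PLK1 from 2.76 to 0.92. In the same cells the ratio of cycling over G1 was -1.56 for MUCL1, and -0.46 for KRT7, which no longer passed the size rule there. LMTK3 (-0.55), SRCAP (-0.40), LINC02303 (-0.39) and CITED4 (-0.30) of the 15 lowest genes did not pass it there either. Over 15 alternatives the ratio ran from -1.62 to -0.99 for MUCL1 and from -1.45 to -0.46 for KRT7.

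Of 11 genes known from earlier results of these data to be higher in the sensitive lineage or its monoculture, 5 were lower in cycling cells and none was higher, with a median of -0.58. On UMIs per cell 2 were lower, with TMM scaling 7, and with scores at least 0.1 from the threshold 8. Since they were chosen on these samples, that count is no independent evidence. The 5 were MUCL1, S100A1, ANKRD37, LURAP1L and IGFBP5, of which the last, an insulin-like growth factor binding protein gene seen afterwards, was at 1697 CPM in G1, 979 CPM in S and 1136 CPM in G2M. ANKRD37, a hypoxia-inducible gene, was at 36.4, 25.8 and 17.9 CPM, and within cluster 3 its ratio was 0.04. FABP7 was at 313, 313 and 212 CPM, a ratio of -0.56 in G2M that misses the size rule, and SCIN at 78.1, 73.7 and 83.2 CPM. Another 4 genes were listed from earlier results as higher in the resistant lineage. Their median was 0.01, and -0.02 with TMM scaling, and MGP, NME4 and TFF3 stayed within the size rule. MT2A, a metallothionein gene that binds metals, was higher, at 253 CPM in G1 (248 to 258), 393 CPM in S (384 to 403) and 801 CPM in G2M (787 to 814). In resistant cells of the same library MT2A was at 259 CPM in G1 and 699 CPM in cycling cells. TFF3 was at 413 and 314 CPM there, beside 416 and 335 CPM in the cocultured sensitive cells. MT2A and TFF3 thus hardly told the lineages apart in coculture.

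The estrogen response, which drives growth of this cell type, did not separate the groups as a list. The counts below stand beside 5.53% of all genes higher and 1.69% lower in cycling cells. Of 37 estrogen-induced genes compared, 1 was higher, 1 was lower and the median was 0.02, beside 0.02 over all genes, and turned to -0.01 with TMM scaling. In G2M alone 1 was higher and 3 were lower, and with scores at least 0.1 from the threshold 3 were higher and 4 lower. STC2, a secreted glycoprotein gene, lay just under the size rule at 52.7 CPM in G1, 38.4 CPM in S and 31.4 CPM in G2M, a ratio of -0.58, and -0.73 in G2M alone. Within cluster 3 its ratio was -0.10. Its level was 128 CPM in the G1 cells of clusters 4, 8 and 12 and 42.0 CPM in those of cluster 3. TFF1, a secreted trefoil peptide, was at 4576 CPM in G1, 4283 CPM in S and 4831 CPM in G2M. GREB1, an estrogen receptor cofactor, was at 67.7, 61.2 and 64.7 CPM, and MYC at 67.8, 64.9 and 77.8 CPM. PGR, the progesterone receptor gene, was at 43.4, 35.8 and 34.8 CPM with a ratio of -0.29. The gene that was lower was PPP1R3C, a glycogen regulator, at 5.24, 2.93 and 1.83 CPM, and the gene that was higher was AGR3, on 23 and 53 UMIs. Of 21 luminal identity genes, 2 were lower, KRT7 and ERBB2, and none was higher. Within cluster 3 neither passed the size rule, with ERBB2 at -0.52. ERBB2, the receptor HER2, was at 37.8, 23.7 and 24.7 CPM, and KRT19 at 3364, 2743 and 2145 CPM with a ratio of -0.46. The luminal median was -0.21, and -0.02 on UMIs per cell.

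Interferon-stimulated genes gave 2 higher and 7 lower of 28, beside 5.53% and 1.69% of all genes. Their median was -0.16, which is 0.00 on UMIs per cell. The count of 7 lower rested largely on 1 cell. IFIT2 had 162 UMIs in G1 and 24 in cycling cells, and 94 of them came from a single G1 cell of cluster 9, which also held 100 of 229 UMIs of IFIT3 and 100 of 210 UMIs of OASL. Without this cell, left out after its values were seen, 2 genes of the list were lower, IFIT2 and IFI27, and the ratio went from -1.66 to -0.74 for IFIT2, from -1.08 to -0.14 for IFIT3 and from -1.39 to -0.45 for OASL. Without the cell with the next most UMIs as well, the ratio was -0.33 for IFIT2, which was then no longer called. The same step went the other way for IFIT1 and ISG15, singled out after their values were seen. Their ratios were -0.55 and -0.53 without the first cell, and -0.78 and -0.64, past the size rule, without the 2 cells with the most UMIs of each. The 2 higher genes were the antiviral sensor gene OAS3, at 7.54, 14.2 and 9.74 CPM, and the immunoproteasome gene PSMB9, at 7.16, 8.78 and 14.9 CPM, named with IFI27 after their values were seen. Of 19 p53 target genes, 1 was higher and 4 were lower, beside 5.53% and 1.69% of all genes. Their median was -0.01, which is 0.14 on UMIs per cell, where 2 were higher and 2 lower. GDF15, a stress cytokine, was at 20.2 CPM in G1, 3.75 CPM in S and 8.61 CPM in G2M, with 144 of its 956 UMIs in 1 G1 cell. Its ratio of -1.57 was -1.15 without the 2 cells with the most UMIs and -0.22 among cells of 25000 to 40000 UMIs, where it was no longer called. TP53INP1, a stress-induced p53 cofactor, was at 16.5, 7.26 and 8.79 CPM. BTG2 and ZMAT3, the other lower genes, were named after their values were seen and had ratios of -0.66 and -0.71. DDB2, a DNA damage sensor, was the higher gene, at 2.03, 4.98 and 4.48 CPM, but within cluster 3 its ratio of 0.37 did not pass.

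Metabolic lists differed little between the groups. Their counts stand beside 5.53% of all genes higher and 1.69% lower. None of 76 ribosomal protein genes, 49 nuclear respiratory chain genes and 13 mitochondrially encoded genes passed the size rule in either direction, with medians of 0.01, 0.03 and -0.19, of which the first 2 lie below 0 with TMM scaling. The mitochondrial genome's own genes were thus lower on CPM by about the amount that UMIs per cell puts back, to -0.01, and 12 of the 13 lay below 0 on CPM. MT-CO2, a cytochrome oxidase subunit, was at 40857 CPM in G1, 33426 CPM in S and 32966 CPM in G2M. Of 29 ribosome biogenesis genes 0 passed, with a median of 0.20, but on UMIs per cell 7 passed, with a median of 0.39. FBL, the nucleolar protein fibrillarin, was at 146, 200 and 220 CPM and NOP56 at 173, 261 and 231 CPM. PHGDH, the first enzyme of serine synthesis, was the only higher gene of 24 in the ATF4 and unfolded protein list, at 11.1 CPM in G1, 30.4 CPM in S and 31.8 CPM in G2M. The median of that list was -0.04, and 0.15 on UMIs per cell. In cholesterol synthesis, with a median of -0.05 that is 0.13 on UMIs per cell, 2 of 21 were higher, ACAT2, at 29.5, 59.95 and 53.9 CPM, and EBP, at 81.2, 119 and 127 CPM. EBP passed the size rule in 10 of 15 alternatives, and not with TMM scaling or within cluster 3, where its ratio was 0.32. Of 16 glycolysis genes, with a median of 0.10, 1 was higher, the phosphofructokinase PFKP, at 16.2, 27.7 and 25.1 CPM, but within cluster 3 its ratio of 0.18 did not pass.

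Immediate early and heat shock genes can be induced by cell dissociation. Of 24 compared, 1 was higher and none was lower, beside 5.53% and 1.69% of all genes. The median was -0.03, which is 0.14 on UMIs per cell, where 4 were higher. In G2M alone 4 were higher and 1 was lower. The gene higher in cycling cells was HSPH1, a heat shock chaperone gene, at 120 CPM in G1, 148 CPM in S and 218 CPM in G2M, a ratio of 0.60 that passed the size rule in 8 of 15 alternatives and not with TMM scaling. HSPA1A was at 210, 232 and 395 CPM and HSPA1B, its near-identical neighbour, at 27.1, 29.5 and 47.6 CPM. Reads that fit both genes are not counted, so the level of each is uncertain. In G2M alone HSPA1A and HSPA1B passed the size rule, with ratios of 0.91 and 0.79. Of 27 hypoxia-inducible genes 2 were lower, beside 1.69% of all genes. The median of the list was -0.07, which is 0.10 on UMIs per cell, where 1 was lower. The 2 genes were ANKRD37 and NDRG1, the latter at 11.8, 6.79 and 5.19 CPM. Within cluster 3 neither passed, with NDRG1 at -0.40, and with a pseudocount of 10 CPM 0 of the list were lower. Of 34 lysosome genes 0 passed, with a median of -0.09, which is 0.09 on UMIs per cell.

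The same comparison was made in the resistant cells of the same library, with 3167 cycling and 3125 G1 cells, and in the sensitive monoculture, with 366 cycling and 2963 G1 cells. In resistant coculture cells 579 of 12422 genes (4.66%) were higher and 122 (0.982%) lower, and in sensitive monoculture cells 901 of 11748 (7.67%) were higher and 672 (5.72%) lower. Of the 636 higher genes of the cocultured sensitive cells, 494 were higher in resistant coculture cells too (77.7% of the 636 and 85.3% of the 579), and 539 in the sensitive monoculture (84.8% of the 636 and 59.8% of the 901). These counts hold members of the phase-call lists, which set the phase in every population. Outside those lists, 404 of 544 were higher in resistant coculture cells too (74.3%, and 82.6% of the 489 there). In the sensitive monoculture 449 were (82.5%, and 55.4% of the 810 there). Of the 194 lower genes, 83 were lower in resistant coculture cells (42.8% of the 194 and 68.0% of the 122) and 157 in the sensitive monoculture (80.9% and 23.4% of the 672). Whether these shares differ was not tested, since each condition has 1 library.

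Medians of the mitosis, replication, chromatin and repair lists were larger in the sensitive monoculture, while that of the E2F and RB family was 0.29 over 18 genes, without E2F7, beside 0.46 over 19 in cocultured sensitive cells. E2F1 had ratios of 1.57 in the sensitive monoculture and 1.22 in cocultured sensitive cells, and MYBL2 of 3.36 and 1.93. The median of the kinetochore list was 1.45 in cocultured sensitive cells, 1.29 in resistant coculture cells and 1.96 in the sensitive monoculture, and for DNA replication it was 1.07, 0.96 and 1.41. FAM111B had ratios of 4.10, 3.92 and 5.37 in that order, and CCNA2 of 3.22, 2.94 and 4.40. The G1 cells of the sensitive monoculture also had lower scores, with a median G2M score of -0.16 against -0.10 in cocultured sensitive G1 cells, and the part of that gap in the larger ratios was not tested. SCGB2A2 had ratios of -4.75, -0.66 and -4.04, but it was at 1.77 CPM in G1 and 0.750 CPM in cycling resistant cells, where the added 1 CPM compresses the ratio, and its value in cocultured sensitive cells rested on few cells. MT2A had ratios of 1.23, 1.43 and 2.48, all higher in cycling cells. CDKN2C had ratios of 1.04, 0.76 and 2.23. No named gene was past the size rule in opposite directions in these populations.

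**Figure D5:**
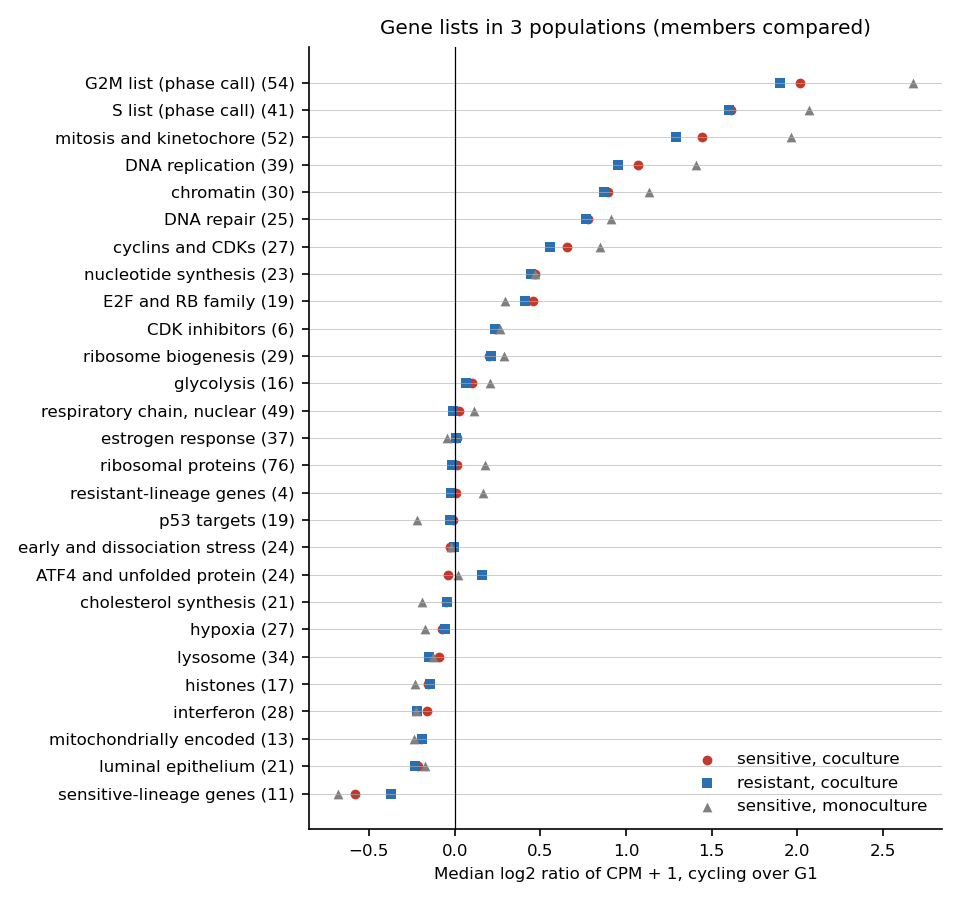
Median ratio of cycling over G1 (x axis, log2 of CPM + 1) for each of 27 gene lists in cocultured sensitive cells (circles), resistant cells of the same library (squares) and sensitive monoculture cells (triangles), with the number of members compared in cocultured sensitive cells in brackets. The phase-call, mitosis, replication, chromatin and repair lists lie far to the right, with the sensitive monoculture furthest, while in all 3 populations the lists from glycolysis to luminal epithelium lie between -0.24 and 0.21, where the side of 0 can change on UMIs per cell.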

How the data were processed

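RNA of single cells from CAMA-1 spheroids was sequenced in 3 libraries. The authors processed the reads with Cell Ranger 3.0.2 on GRCh37 (per the labels and methods) and deposited raw UMI counts for each gene in each barcode. Their deposited annotation gives the kept cells with their phase, the S and G2M score, the mitochondrial percent, the cluster and the population, made with Seurat after limits of 3000 to 7000 detected genes, 2000 to 60000 UMIs and under 30% mitochondrial UMIs and after removal of doublets by scrublet. In the annotation, cells with 1 mVenus UMI are kept. A further 9 columns of it were not used.

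Rows with no symbol (0.591% of coculture UMIs) were left out, and UMIs per cell then differed from the deposited totals by at most 5. UMIs of the cells of a phase were summed and given as CPM. Ratios used a pseudocount of 1 CPM and a minimum of 50 UMIs over both groups. Intervals are exact Poisson or Clopper-Pearson at 95% and cover counting error only. With 1 library per condition, no test was run. MAST, which takes cells as replicates, was not run.

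The members, the 27 gene lists and the comparisons were chosen with earlier results of these data known. Named genes are the 15 highest and 15 lowest ratios where the group means averaged 20 CPM or more, outside the phase-call lists, the 5 highest members of each phase-call list, the 3 largest ratios of every other list and a set of cell cycle, estrogen and lineage genes. UHRF1 and CASP8AP2 of the S list were not matched. A gene that the rule names is not reported here. The scripts for ratios, intervals and phases were tested on simulated data.

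Alternatives covered pseudocounts, UMI minimums, scaling (TMM factors of edgeR 4.0.16 in R 4.3.3, used as scaling only, and UMIs per cell), thinning to 5000 UMIs, depth, distance from the phase threshold, phases called anew, mVenus UMIs, doublets and clusters. Python 3.11.15, numpy 2.4.6, scipy 1.17.1 and scanpy 1.11.5 were used.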

Additional observations from a re-analysis of the deposited data

How the results depend on the processing

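No paired analysis was possible because each condition has 1 library and no result comes from a test. Of 636 higher and 194 lower genes for cycling over G1, 637 and 232 for S over G1 and 674 and 323 for G2M over G1, these counts moved by over 1.5 times. With a pseudocount of 0.1 CPM, 439, 455 and 563 genes were lower. With 10 CPM, 307, 276 and 318 were higher and 24, 22 and 40 lower. With a minimum of 500 UMIs, 92 were lower for cycling, 370 higher and 70 lower for S, and 427 higher and 130 lower for G2M. On UMIs per cell, 1106, 1164 and 1195 were higher and 90, 105 and 172 lower. With cells thinned to 5000 UMIs, 304 were lower for cycling and 387 for S. With scores at least 0.1 from the threshold, 1132, 1110 and 1107 were higher and 797, 727 and 811 lower. With phases called anew, 145 were lower in S. Within cluster 3, 259, 309 and 375 were higher. The share of higher genes among those called for cycling ran from 58.7% with scores at least 0.1 from the threshold to 92.8% with 10 CPM, and was 64.6% with 0.1 CPM and 64.0% within cluster 3. The lower counts within cluster 3 moved by less, to 146, 269 and 446, and for G2M the higher genes were then 45.7% of those called.

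The ratio of cycling over G1 changed sign with phases called anew for IFIT2 (0.65), OASL (1.06) and IFIT3 (0.79), and within cluster 3 for CDKN2C (-0.07), CDKN2D (-0.047) and ANKRD37 (0.04), which had passed the size rule. Of named genes that had not passed it, KRT19, HK2, NEU1, TFF3, CCND1, RB1 and TFF1 also changed sign there, to between -0.08 and 0.14. Other named genes that passed the size rule and missed it in at least 1 alternative, with no change of sign, were S100P, LINC02303, KRT7, LMTK3, S100A1, CITED4, HIST1H2BC, SRCAP, DUT, E2F2, E2F7, RBL1, CCNE1, PPP1R3C, AGR3, ERBB2, NDRG1, GDF15, TP53INP1, DDB2, HSPH1, EBP and PFKP. The cause was not tested. Clusters 3 and 7 alone, chosen after seeing the data, gave 634 higher and 138 lower genes. The phase threshold cuts a range without a gap, so the counts depend on where it lies. With 1 library, no spread between spheroids was measured.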
